A study of Mus musculus with 4 samples.

Results

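The genes described here are histone lysine methyltransferases, the enzymes that write methyl groups onto lysines of the histone tails and core. The list held 10 mouse genes, Setd1a, Setd1b, Setd2, Setd5, Nsd1, Ash1l, Ezh2, Dot1l, Ehmt1 and Ehmt2, taken by symbol from a table of 22667 genes. It found 9 of them, and Setd1b is not analysed here. RNA-seq had been made from Neuro-2a (N2a) cells, a mouse neuroblastoma line, that were transfected for 48 h with siControl, a control siRNA, or with siArglu1, directed against Arglu1, which encodes a nuclear protein that acts in glucocorticoid receptor signalling and in splicing. The cells then received ethanol as vehicle (Veh) or the synthetic glucocorticoid dexamethasone (Dex, 100 nM) for 4 h. All 4 groups were thus transfected cells of 1 line, and mRNA of 3 cultures was pooled into 1 library per group, so that there are no replicates and no test between the libraries of a pair. Intervals given below are exact 95% intervals of the reads and cover counting error only.

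Methylation of histone lysines is read by other proteins and has different meanings at different positions. Methylation of lysine 4 of histone H3 (H3K4), written by SETD1A and the KMT2 enzymes, marks active promoters and enhancers. Methylation of H3K36 accompanies transcription and is written by SETD2 along transcribed genes, and also by NSD1 and ASH1L. EZH2, the catalytic subunit of Polycomb repressive complex 2 (PRC2), methylates H3K27 at silent developmental genes. EHMT1 (GLP) and EHMT2 (G9a) act as a pair on H3K9, also a repressive mark, and DOT1L, which has no SET domain, methylates H3K79 within the core of the nucleosome. SETD5 carries a SET domain, and whether it methylates histones itself is debated. Several of these genes, among them Setd5, Nsd1 and Ehmt1, are known from human neurodevelopmental disorders.

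Reads on genes came to between 66074574 and 86541444 per library. Arglu1 reads stood at 26.3% of the siControl level in vehicle and at 22.5% in Dex. The cells carried the labelled identity in part, with Tubb3, Stmn2, Chga and Hand2 between 189.55 and 630 cRPKM in siControl Veh, whereas Nefl and Nefm, of the same list of 14 neuronal and neuroblastoma markers, were at 0.01 cRPKM or less there. The cRPKM, the deposited measure of level, divides reads by mappable length in kilobases and by library size. The summed cRPKM of 4 glial markers stayed between 0.04 and 0.10, that of 5 fibroblast and endothelial markers between 0.75 and 1.14, and that of 3 leukocyte markers between 0.43 and 0.61. The sum over 5 smooth muscle contractile genes (Acta2, Tagln, Cnn1, Myl9 and Myh11) was 8.58 and 8.70 in siControl Veh and Dex, and 174 and 160 in siArglu1 Veh and Dex. Summed over the 14 neuronal and neuroblastoma markers, it was 1866 and 1898 with siControl (Veh and Dex), and 2339 and 2344 with siArglu1. Of that list, Gata3 had knockdown log2 ratios of 1.16 in vehicle and 1.54 in Dex, and Dcx, at 0.25 cRPKM in siControl Veh, had -1.62 and -1.15. The part of these shifts in the results below was not tested.

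In siControl Veh, the levels of the methyltransferases spanned a wide range on the cRPKM scale, which corrects for length. Ezh2 stood highest at 82.2 cRPKM, above 91.4% of the 12497 genes that were compared, those with a total of 75 reads or more. Ehmt2 followed at 34.4. Setd5 at 28.8 and Dot1l at 28.47 had counting intervals that overlapped, as did Dot1l and Ehmt1 at 27.76. Setd1a at 21.23, Setd2 at 17.53 and Ash1l at 6.98 came next with intervals apart from their neighbours. Nsd1 was last at 0.24 cRPKM, a level above only 5.18% of the genes compared. The order at the top and at the bottom was thus clear at this depth, and that of Setd5, Dot1l and Ehmt1 was not.

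**Figure D1:**
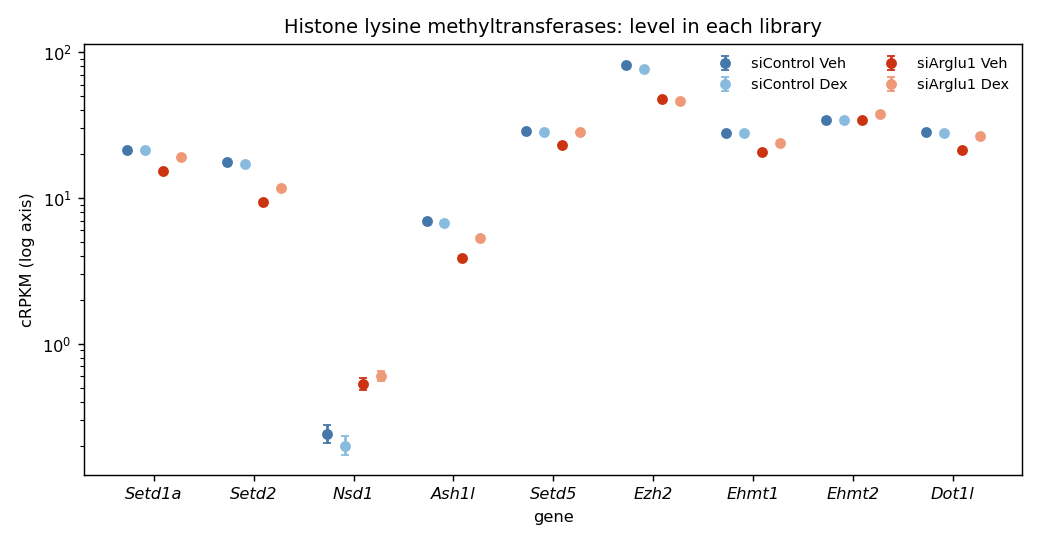
Level of the 9 histone lysine methyltransferases in each of the 4 libraries, in cRPKM on a log axis, with exact 95% counting intervals (smaller than the point for most genes). Ezh2 stood highest in all libraries and Nsd1 lowest, and Nsd1 alone had both siArglu1 libraries well above both siControl libraries.

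Knockdown of Arglu1 was compared in vehicle (siArglu1 Veh against siControl Veh) and in Dex (siArglu1 Dex against siControl Dex), which share no library. In bulk RNA, fewer cells that express a gene and less of its RNA per cell cannot be told apart. Coverage along some of the genes also differed between libraries, as described with splicing below, and its part in the ratios was not tested. The log2 ratio of reads after TMM scaling was below 0 for 7 of the 9 genes in either pair, beside 49.7% of all genes compared in each. Genes of similar length are set beside these further below. Its median over the genes was -0.39 in vehicle and -0.17 in Dex, beside medians over all 12497 genes of 0.0038 and 0.0031. By the size rule of 0.81 on the log2 scale, 2 genes (Setd2 and Ash1l) were lower and 1 (Nsd1) was higher in vehicle, and none was lower and 1 (Nsd1) was higher in Dex. Of all genes compared, 8.77% were lower and 7.00% higher by this rule in vehicle, and 5.93% were lower and 6.19% higher in Dex. An additive edgeR quasi-likelihood model over all 4 libraries, with 1 residual degree of freedom and Benjamini-Hochberg adjustment, called 30.9% of all genes lower and 30.8% higher after knockdown. Because that share is large, an adjusted p below 0.05 from this model separates a gene little from the rest. The model takes the Veh and Dex libraries as replicates of the knockdown. Its p-values, here and below, therefore do not measure variation between cultures.

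Ezh2 (ENSMUSG00000029687), the H3K27 writer, was lower after knockdown to nearly the same extent in both pairs. It had 82.2 and 77.22 cRPKM in the siControl libraries (Veh and Dex) and 47.40 and 46.61 in the siArglu1 libraries, and the intervals of the siControl libraries did not overlap those of the siArglu1 libraries. After knockdown it stood at 59.0% of its scaled siControl level in vehicle (log2 ratio -0.76, interval -0.80 to -0.72) and 60.0% in Dex (-0.74, interval -0.77 to -0.70). Both ratios fell short of the size rule of 0.81. The additive model gave a log2 change of -0.75 with an adjusted p of 5.45e-17 (edgeR).

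Among the writers of H3K36 methylation, Nsd1 (ENSMUSG00000021488) stood apart. Its reads numbered 204 and 179 in the siControl libraries (Veh and Dex), and 450 and 664 in the siArglu1 libraries. The scaled level was 224% of siControl in vehicle (log2 ratio 1.16, interval 0.92 to 1.41) and 304% in Dex (1.60, interval 1.36 to 1.85), and the intervals of the ratios overlapped between the pairs. Nsd1 was the only gene of the 9 that was higher by the size rule, at 0.53 against 0.24 cRPKM in vehicle and 0.60 against 0.20 in Dex. Its highest level was thus still below that of Ash1l in any library. An alternative splice site near its 3′ end had 7 and 6 junction reads with siControl (Veh and Dex), and 13 and 16 with siArglu1. Sites nearer the 5′ end had 0 to 11, among them several with 0 in all 4 libraries. Whether the rise covers the whole of Nsd1 was not tested. The additive model gave 1.38 with an adjusted p of 2.18e-25 (edgeR).

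Setd2 (ENSMUSG00000044791), which trimethylates H3K36, was the lowest of the 9 by ratio in vehicle. Its levels were 17.53 and 17.18 cRPKM with siControl (Veh and Dex), and 9.38 and 11.76 with siArglu1, so that both siArglu1 libraries were below both siControl libraries. The log2 ratio was -0.87 (interval -0.92 to -0.82) in vehicle and -0.56 (interval -0.60 to -0.51) in Dex, where it no longer reached the size rule.

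Ash1l (ENSMUSG00000028053), a Trithorax group protein, followed the same order of libraries at a lower level, with 6.98 and 6.74 cRPKM with siControl (Veh and Dex) and 3.88 and 5.27 with siArglu1. Its log2 ratio in vehicle lay at the limit of the size rule (-0.81, interval -0.88 to -0.75) and was smaller in Dex (-0.36, interval -0.42 to -0.31). In the additive model, Setd2 had an adjusted p of 1.95e-15 and Ash1l one of 1.41e-10 (edgeR).

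Setd5 (ENSMUSG00000034269) differed less. It had 28.80 and 28.35 cRPKM with siControl (Veh and Dex) and 28.14 in siArglu1 Dex, and only siArglu1 Veh was apart, at 22.97. The log2 ratio was -0.29 (interval -0.33 to -0.26) in vehicle, while in Dex the interval included 0 (-0.02, interval -0.05 to 0.01). The additive model did not call it (adjusted p = 0.105, edgeR).

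The H3K4 writer Setd1a (ENSMUSG00000042308) had 21.23 and 21.32 cRPKM in siControl Veh and Dex, and 15.28 and 19.02 in siArglu1 Veh and Dex. The ratio was -0.44 (interval -0.49 to -0.40) in vehicle and -0.17 (interval -0.21 to -0.13) in Dex. Dot1l (ENSMUSG00000061589), the H3K79 writer, behaved alike in numbers, with 28.47, 27.94, 21.18 and 26.47 cRPKM in the same order of libraries. Its ratios were -0.39 (interval -0.43 to -0.35) and -0.09 (interval -0.12 to -0.05). In both genes siArglu1 Veh was the lowest library and siArglu1 Dex lay between it and siControl.

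The H3K9 pair did not move alike. Ehmt1 (ENSMUSG00000036893) had 27.76 and 28.06 cRPKM with siControl (Veh and Dex) and 20.80 and 23.71 with siArglu1, with log2 ratios of -0.38 (interval -0.43 to -0.34) in vehicle and -0.25 (interval -0.29 to -0.21) in Dex. Its partner Ehmt2 (ENSMUSG00000013787) had 34.40, 34.45, 34.24 and 37.78 cRPKM in the same order. The Ehmt2 ratio in vehicle had an interval that included 0 (0.03, interval -0.02 to 0.07), and that in Dex was 0.13 (interval 0.09 to 0.16). The ratios of the partners were thus apart by more than their counting intervals in either pair. The additive model called Ehmt1 (adjusted p = 5.53e-04) and not Ehmt2 (adjusted p = 0.446, edgeR).

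Length mattered for how these ratios were to be read, since most of the genes are long and, across all genes compared, the log2 ratio decreased with mappable length. Spearman's rho across genes, which are not independent replicates, was -0.398 in vehicle and -0.229 in Dex. Each gene was therefore set beside the 500 genes nearest to it in mappable length. Of the 9, only Ezh2 and Nsd1 were outside the range from the 10th to the 90th percentile of these genes, in both pairs. Ezh2, the shortest of the 9 with 2.60 kb of mappable positions, was set beside genes with medians of 0.02 in vehicle and 0.03 in Dex, and 7.4% and 6.6% of them were lower than it. Nsd1, the longest with 12.8 kb, was set beside genes with medians of -0.52 and -0.29, and it was higher than 99.0% and 99.8% of them.

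The other 7 genes were within the range of genes of similar length. Over the 9, the median difference from the median of such genes was -0.06 in vehicle and -0.0028 in Dex, and 5 of the 9 were below it in each pair. For Setd1a the median of these genes was -0.38 in vehicle and -0.17 in Dex, next to its own -0.44 and -0.17. For Dot1l it was -0.42 and -0.22, and 52.8% and 62.4% of them were lower than Dot1l. Setd2 was toward the lower side, with 17.2% of genes of similar length lower than it in vehicle and 19.2% in Dex. Ash1l had 26.6% and 42.6% of such genes below it. With the trend on length removed by lowess, no gene was lower by the size rule in vehicle, as Setd2 came to -0.41 and Ash1l to -0.23, whereas Ezh2 came to -0.79 and Nsd1 to 1.80.

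**Figure D2:**
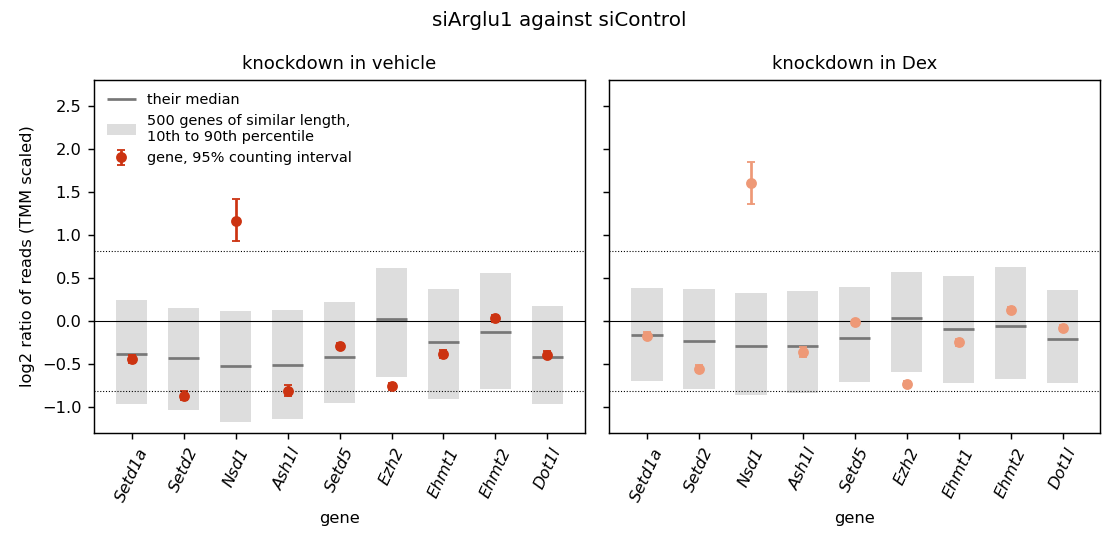
Log2 ratio of TMM-scaled reads, siArglu1 over siControl, for each gene in vehicle (left) and in Dex (right), with exact 95% counting intervals. Grey bars give the 10th to 90th percentile of the 500 genes of most similar mappable length, grey lines their median, and dotted lines the size rule of 0.81. Ezh2 sits below its grey bar and Nsd1 above it in both panels.

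The proteins that work with these enzymes were described from fixed lists. Neither these genes nor the other methyltransferases below were set beside genes of similar length. The part of length in their ratios was thus not tested. For comparison with the counts below, 49.7% of all 12497 genes compared had ratios below 0 in vehicle and 49.7% in Dex. By the size rule, 8.77% of all genes were lower and 7.00% higher in vehicle, and 5.93% and 6.19% in Dex. Of 9 partners of EZH2 in PRC2, 2 were lower and 1 was higher by the size rule in vehicle, and 1 was lower in Dex. Aebp2, an accessory subunit, was lower in both pairs (-1.01, interval -1.08 to -0.95, and -1.05, interval -1.11 to -0.995). The core subunit Suz12 had -0.82 and -0.69, close to Ezh2, whereas the core subunit Eed had 0.20 and 0.07. Rbbp7, a histone-binding subunit shared with other complexes, had 0.87 and 0.68, and its relative Rbbp4 had -0.10 and -0.29. Subunits of PRC2 therefore differed in direction as well as in size, with a median over the 9 of -0.07 in vehicle and 0.07 in Dex.

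Of 8 partners and readers of H3K9 methylation, 7 were in the table, and all 7 had ratios below 0 in both pairs, with medians of -0.21 and -0.25. Only Cbx5, which encodes the heterochromatin protein HP1 alpha, was lower by the size rule, in vehicle (-1.04, interval -1.07 to -1.01) and in Dex (-0.84, interval -0.86 to -0.82). Its cRPKM were 60.52 in siControl Veh and 28.74 in siArglu1 Veh. The related Cbx1 had -0.18 and -0.19.

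None of 10 subunits of H3K4 methyltransferase complexes reached the size rule in either pair, although 9 were below 0 in each, with medians of -0.25 and -0.24. Of 4 DOT1L partners, 1 (Mllt10) was lower by the rule in vehicle, at -0.96, and had -0.73 in Dex. None of 6 partners and readers of H3K36 methylation reached the rule. Among 20 other methyltransferases, 15 were below 0 in vehicle and 14 in Dex, and 2 were lower by the rule in vehicle (Kmt2d at -0.97 and Kmt2e at -0.98) and none in Dex, where they had -0.36 and -0.47. No gene of that list was higher by the rule. Suz12, Eed, Rbbp4, Rbbp7, Cbx1, Mllt10, Kmt2d and Kmt2e were named after their values were seen.

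**Figure D3:**
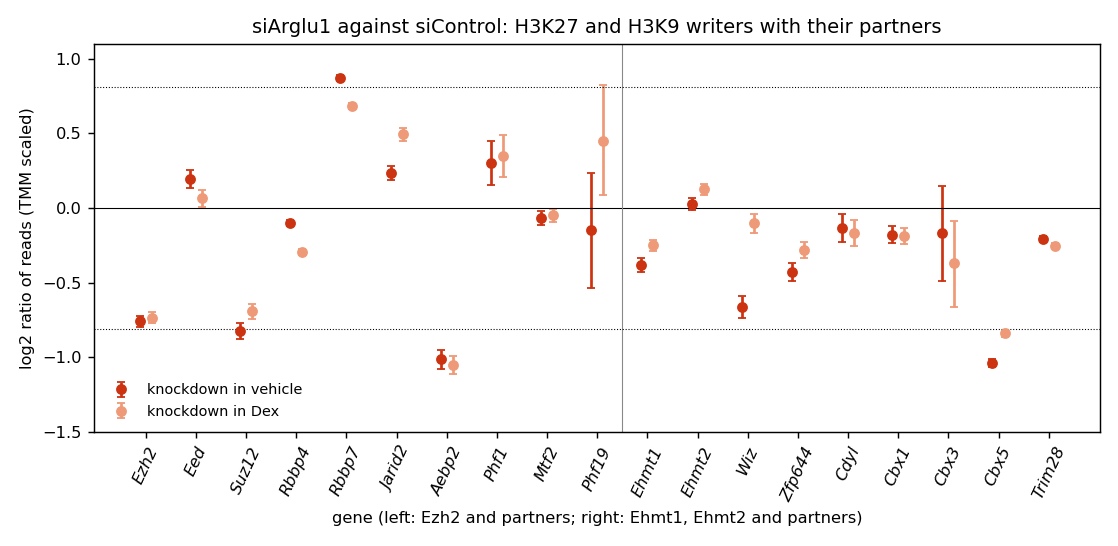
Log2 ratio of TMM-scaled reads, siArglu1 over siControl, for Ezh2 and its 9 PRC2 partners (left of the line) and for Ehmt1, Ehmt2 and 7 partners and readers of H3K9 methylation (right), with exact 95% counting intervals and dotted lines at the size rule of 0.81. Aebp2 and Cbx5 lie below the lower dotted line in both pairs, and Rbbp7 lies above the upper one in vehicle.

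Dex was compared with vehicle in siControl and, in other libraries, in siArglu1, with a size rule of 1 on the log2 scale. None of the 9 genes reached it in either comparison, where 0.464% and 0.392% of all genes compared did. In siControl, the counting intervals of 8 genes included 0, and Ezh2 was slightly lower with Dex (-0.08, interval -0.12 to -0.05). The share of all genes with intervals that included 0 was not computed. Nsd1, at -0.29 (interval -0.59 to 0.01), was below the 10th percentile of genes of similar length (-0.15), with 3.0% of them lower, and the other 8 genes were within the range from the 10th to the 90th percentile. The additive model called no methyltransferase for Dex, with the lowest adjusted p of the 9 at 0.864 (Ash1l, edgeR), and called 1.04% of all genes. Before adjustment, 1 methyltransferase (Ash1l) passed the level of 0.05 in that model.

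In siArglu1, 7 of the 9 genes had Dex ratios with intervals above 0. The share of all genes compared with such intervals was not computed. Ratios were below 0 for 1 of the 9 and for 50.3% of all 12497 genes. Ash1l was at 0.41 (interval 0.34 to 0.47), Setd2 at 0.29, Dot1l at 0.29 and Setd1a at 0.28, whereas Ezh2 was at -0.06 (interval -0.10 to -0.02). All 9 were within the 10th to 90th percentile of genes of similar length there, and across all genes compared Spearman's rho of this ratio with mappable length was 0.543, against -0.163 in siControl. The median of genes of similar length was 0.22 for Ash1l and 0.19 for Setd2. The same 4 libraries give the difference between the knockdown ratios, so that these values are not further evidence. The knockdown ratio in Dex exceeded that in vehicle by 0.45 in Ash1l, 0.31 in Setd2 and 0.02 in Ezh2. The intervals of the knockdown ratios were apart for 7 genes and overlapped for Ezh2 and Nsd1, and this share was not computed over all genes.

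**Figure D4:**
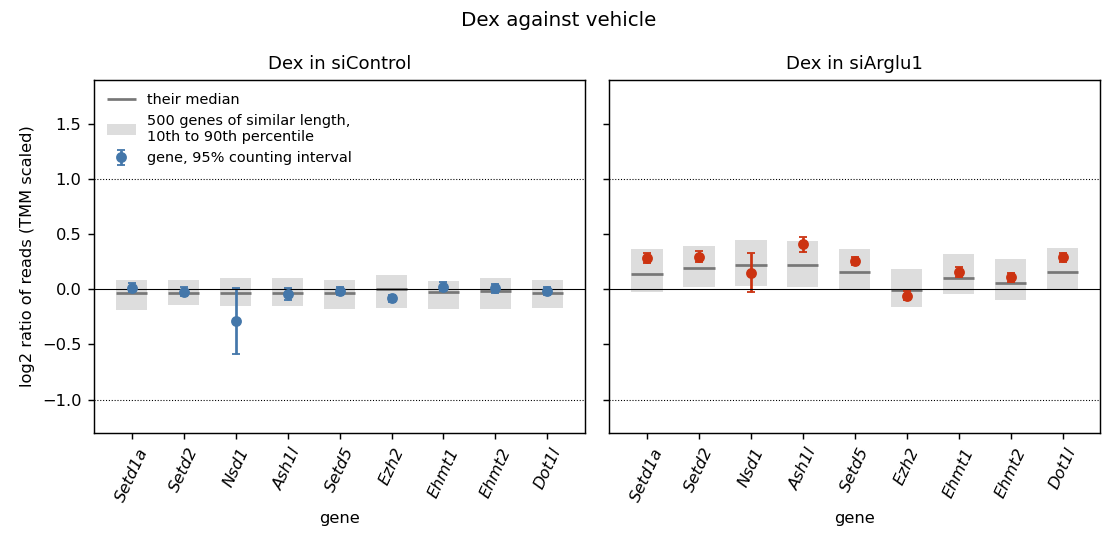
Log2 ratio of TMM-scaled reads, Dex over vehicle, in siControl (left) and siArglu1 (right), drawn as for the knockdown, with dotted lines at the size rule of 1. In siControl the genes lie near 0, with Nsd1 imprecise at -0.29. In siArglu1 7 of them have intervals above 0, and all lie inside the grey range of genes of similar length.

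Splicing was given as PSI (percent spliced in), that is, how often an exon is included or a site used, in tables of cassette exons and of alternative 3′ and 5′ splice sites. The 9 genes had 157 events, of which 127 had a PSI in all libraries and coverage scored LOW, OK or SOK in 3 or more. All 127 came from 8 genes. Nsd1 had no event that could be compared, as all its 20 exons and sites had the score N (under 10 reads where reads are given) in siControl Veh. Of 136 exons and sites compared, 70 were included above 95% and 38 below 5% in siControl Veh, and 112 moved by less than 5 PSI in all comparisons. These shares were not computed over all exons and sites. Differences of at least 15 PSI were found in 1 event with knockdown in vehicle, in none with knockdown in Dex, in none with Dex in siControl and in 1 with Dex in siArglu1. Of all 57183 events compared, 1.96%, 1.52%, 0.719% and 0.948% reached 15 PSI in the same order.

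The event past 15 PSI with knockdown was a cassette exon of 41 nt in Setd5. In mm9 it lies at chr6:113060624-113060664 on the plus strand, inside an intron of 340 nt between coding exons of 152 and 59 nt. Its PSI was 16.97 and 18.05 in the siControl libraries (Veh and Dex) and 32.48 and 28.38 in the siArglu1 libraries, so that both siArglu1 libraries were above both siControl libraries. The difference was 15.51 in vehicle and 10.33 in Dex. Coverage was scored SOK in 3 libraries and OK in siArglu1 Veh. These scores stand for 100 or more and for 40 to 99 junction reads in the splice site tables, and the cassette table gives no reads, so that no interval was made. None of the 48 exons that GENCODE M21 lists for Setd5 has this length. An intron of the same 340 nt is present there. The exon sequence was read from 3 transcripts that retain this intron, at the distance given in mm9, 104 nt after the upstream exon. It was not compared with the mm9 genome sequence. It is printed because it carries this difference, with the exon in capitals and 20 and 10 bases of intron in lower case.
Setd5 41-nt exon: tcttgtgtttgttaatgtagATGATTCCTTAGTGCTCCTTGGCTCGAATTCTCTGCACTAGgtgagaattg

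The exon is preceded by AG and followed by GT, the usual ends of an intron. Its length is not a multiple of 3, and each of its 3 reading frames holds 1 stop codon. An overlapping form that ends 85 nt further on was used at 11.25 and 18.78 PSI with siControl (Veh and Dex) and at 13.30 and 18.91 with siArglu1, with 22 to 31 junction reads and intervals that overlapped in all libraries.

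Among cassette exons, a pair in Ehmt2 came next in having moved alike in both knockdown pairs, though by less than 15 PSI. The first of them was named after its values were seen. The exon of 102 nt (mm9 chr17:35042555-35042656) had a PSI of 24.63 and 23.61 with siControl (Veh and Dex) and of 31.65 and 33.43 with siArglu1. The exon of 116 nt (mm9 chr17:35048308-35048423) had 80.28, 81.50, 89.56 and 87.88 in the same order. In both exons, inclusion was higher in the siArglu1 libraries, by 7.02 and 9.82 PSI in the shorter one and by 9.28 and 6.38 in the longer one in vehicle and Dex. Coverage was SOK in all 4 libraries. Differences of at least 5 PSI in the same direction in both pairs were present in 4 of the 136 exons and sites (2.94%), and in 4.12% of all 61786 compared.

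The Ehmt2 exons were matched to GENCODE M21 (GRCm38) by gene, length and the length of both flanking introns. They are the 9th and 23rd of 27 exons of an annotated transcript and lie wholly in its coding sequence, at chr17:34905610-34905711 and chr17:34911363-34911478 on the plus strand. The 102 nt of the 9th exon are a multiple of 3, so that it can be included or skipped without a shift of frame, and the 116 nt of the 23rd are not. An exon of Ezh2 of 126 nt, also a multiple of 3 (mm9 chr6:47491844-47491969, GRCm38 chr6:47541845-47541970 on the minus strand, the 14th of 20 exons, coding), is printed with them for comparison, as its PSI was lower in both siArglu1 libraries (61.53 and 59.76) than in both siControl libraries (63.56 and 65.89), by a difference of -2.03 in vehicle and -6.13 in Dex. Capitals mark the last 3 bases of each exon, next to the 5′ splice site.
Ehmt2 102-nt exon: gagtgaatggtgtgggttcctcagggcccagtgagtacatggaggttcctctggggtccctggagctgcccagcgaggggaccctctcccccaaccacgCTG
Ehmt2 116-nt exon: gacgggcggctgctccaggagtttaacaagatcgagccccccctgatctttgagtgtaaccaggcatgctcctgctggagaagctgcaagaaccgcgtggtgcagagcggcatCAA
Ezh2 126-nt exon: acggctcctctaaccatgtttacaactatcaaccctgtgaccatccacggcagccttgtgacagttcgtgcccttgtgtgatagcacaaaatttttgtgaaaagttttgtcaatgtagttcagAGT

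The letters CGGAGG and CGGGGG, the type of sequence that ARGLU1 preferred in the study's binding assay on short RNAs, were searched, each on its own, on both strands of these 4 exons. Neither was present. Among annotated internal coding-gene exons of the same lengths, CGGAGG is present on the transcript strand in 1.15% to 2.89% and CGGGGG in 0.385% to 1.65%. The introns beside these exons were not searched.

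The event past 15 PSI with Dex in siArglu1 was another exon of Setd5, 225 nt long at mm9 chr6:113055911-113056135 and listed among complex events. Its PSI was 75.10 and 69.29 with siControl (Veh and Dex) and 81.02 and 64.66 with siArglu1, with SOK coverage throughout. Dex libraries were lower in both pairs, with differences of -5.81 in siControl and -16.36 in siArglu1, and the knockdown differences had opposite signs (5.92 in vehicle and -4.63 in Dex). A 193-nt exon of Setd5 had 14.63, 9.94, 16.46 and 23.08 PSI at OK coverage.

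**Figure D5:**
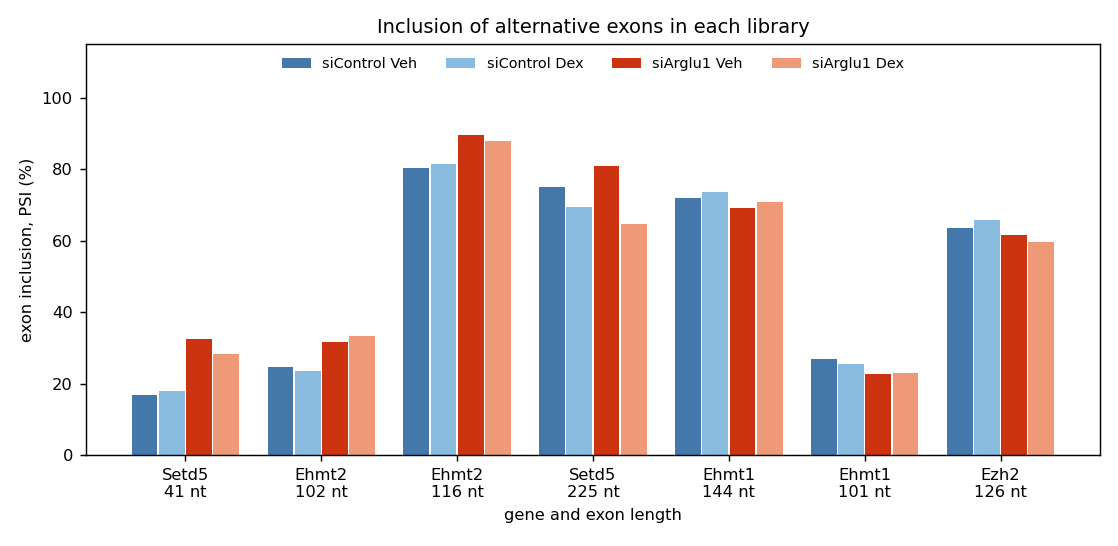
PSI of the 7 cassette exons with OK coverage in all libraries and 15 to 90 PSI in siControl Veh, shown in each of the 4 libraries (bars, 1 library each, no error bars as there are no replicates and no read counts). Inclusion of the 41-nt exon of Setd5 and of both Ehmt2 exons is higher in both siArglu1 libraries, while that of the Ezh2 exon and of both Ehmt1 exons is lower in both, with differences no larger than the -6.13 PSI of the Ezh2 exon in Dex.

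For the members without such an event, the largest knockdown difference in vehicle was as follows. In Ehmt1, use of a 3′ splice site 3 nt from another was 73.18% of 73 junction reads in siControl Veh (interval 60.9 to 82.4), 70.61% of 80 in siControl Dex, 58.40% of 26 in siArglu1 Veh (interval 36.9 to 76.6) and 62.80% of 66 in siArglu1 Dex. The intervals of the libraries in vehicle overlapped, so that the difference of -14.78 PSI there was imprecise at this depth, and it was not tested. The difference in Dex was -7.81 PSI, in the same direction. In Ezh2, a 5′ splice site 203 nt from another was used at 28.28, 27.71, 20 and 27.45 PSI, the third of these from 30 reads. That library, siArglu1 Veh, had the fewest reads for the Ehmt1 site and the Ezh2 site alike. A 15-nt exon of Setd2 had 9.48, 6.38, 0 and 2.56 PSI, with the score N in siArglu1 Veh. A 148-nt exon of Ash1l had 1.41, 2.24, 8.97 and 6.58, the third with the score VLOW (10 to 19 reads in the splice site tables), and a 631-nt exon of Dot1l had 7.34, 7.72, 13.88 and 10.43. In these Ash1l and Dot1l exons, both siArglu1 libraries were above both siControl libraries. In Setd1a, no difference in any of the comparisons exceeded 2.19 PSI.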

How the data were processed

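The authors deposited raw read counts of each gene in the 4 libraries, with RPKM corrected for mappability (cRPKM), and splicing tables with PSI as a percent and a coverage score in words. The submitters' processing notes name Bowtie and mm9, without a role or version. A pair of unnamed columns with the authors' Dex over Veh ratios was not used. Depth was 66074574 to 86541444 reads on genes.

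Reads were scaled with TMM in edgeR 4.0.16 (R 4.3.3), and ratios were formed from log2 CPM (prior count 1). Comparison needed 75 reads in all. Ratio intervals (exact 95%) condition on the reads of 2 libraries, and PSI intervals are Clopper-Pearson on junction reads. The additive model assumes that knockdown and Dex act independently. Mappable length was computed from reads and cRPKM. The fixed lists, markers and size rules (0.81 from the study's legend for knockdown, 1 for Dex, 15 PSI) and the members were chosen with earlier results of these data known. Named were all members, up to 3 genes of each list past 0.81 in both knockdown pairs, every event of a member past 15 PSI, and otherwise the event with the largest knockdown difference in vehicle. By that rule, the marker lists also gave Dcx and Gata3, whose ratios are given above. They gave Pecam1, Acta2, Cnn1 and Myl9 as well, which are reported only in their lists. Some markers are not reported here. Sequences are from GENCODE M21. The additive model and the knockdown size rule were run on simulated counts. The length, splicing and sequence steps were not tested in this way. Alternatives were other scalings, prior counts, thresholds, filters, length neighbours and a length correction.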

Additional observations from a re-analysis of the deposited data

How the results depend on the processing

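Of 180 recomputed ratios of the 9 genes, 178 kept their side of the size rule and 169 kept their sign. None changed sign with median-of-ratios scaling or a prior count of 5. With total reads and with the deposited cRPKM, 1 did, Ehmt2 in vehicle (-0.0066 and -0.0067), whose counting interval included 0. With the length trend removed, the genes lower in vehicle by the rule went from 2 to 0, and 9 ratios changed sign. In 3 of these the interval had excluded 0: Setd5 in vehicle (0.083), Setd1a in Dex (8.9e-04) and Dot1l in Dex (0.10). In the other 6 it had included 0: Setd5 in Dex (0.17), Nsd1 for Dex in siArglu1 (-0.13), and Setd2, Ash1l, Setd5 and Dot1l for Dex in siControl (0.0015 to 0.018). A size rule of 1 also left 0 genes lower in vehicle. The additive model called Setd1a, Ezh2, Ehmt1 and Dot1l, which the size rule did not. The share of all genes past the Dex rule was 8.15% in siControl and 5.96% in siArglu1 without a minimum of reads, and 0.215% and 0.146% with 200 reads. The count of member events past the PSI rule, in the order knockdown in vehicle, knockdown in Dex, Dex in siControl and Dex in siArglu1, was 6, 3, 5 and 3 of 146 without a coverage minimum. Of all 78286 events, 5363, 4779, 4151 and 4482 passed it in the same order. At 10 PSI the count was 2 of 127 with knockdown in vehicle and 2 in Dex, beside 2516 and 2091 of all 57183 events. At 25 PSI it was 0 with knockdown in vehicle and 0 with Dex in siArglu1, beside 218 and 107 of all events. The cause of these shifts was not tested, beyond the looser or stricter limits themselves. No paired analysis was possible because each group is 1 library, so that replicate numbers pair nothing.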
